A study of Homo sapiens with 24 samples.

Results

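The genes described here are 33 members of the unfolded protein response and of the protein folding machinery of the endoplasmic reticulum (ER), followed in SKBR3 cells in which PMCA2, NHERF1 or HER2 had been knocked down. They were chosen by symbol, from the platform annotation of the arrays. Each member with a probe under its symbol was represented by the probe with the highest mean over the 24 arrays. Of the 33, 29 were among the 12445 genes tested. SKBR3 is a human breast cancer line with amplified HER2 (the receptor encoded by ERBB2). PMCA2 is a plasma membrane calcium pump encoded by ATP2B2, and NHERF1 is a scaffold protein of the cell cortex. Per the labels' protocols, shRNA lentiviral particles were added to the cultures for 48 h, and total RNA was read on Illumina arrays after biotin labelling. There were 6 arrays each of control cells and of cells with PMCA2, NHERF1 or HER2 knocked down, 4 groups in all. Every group is the same line, and no other treatment is named. The labels name no hairpin or vector for the control group and do not say whether control cells were infected. They name no separate cultures either, so the p-values measure the spread between these samples, which may be technical.

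When unfolded proteins accumulate in the ER, 3 membrane sensors respond. ERN1 (IRE1) splices the XBP1 transcript into the form that encodes an active transcription factor, EIF2AK3 (PERK) phosphorylates eIF2alpha and so slows translation, and ATF6 is cut in the Golgi to release a transcription factor. ATF6 and spliced XBP1 induce chaperones, oxidoreductases and the genes of ER-associated degradation (ERAD), which returns misfolded proteins to the cytosol. Phosphorylated eIF2alpha favours translation of ATF4, which induces DDIT3 (CHOP), ATF3 and PPP1R15A (GADD34); PPP1R15A brings a phosphatase to eIF2alpha and ends that arm.

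The promoters of the members are shown first because the regulators of the response bind short elements there. RefSeq promoter windows of 250 bases before and 50 after the transcription start (GRCh38.p14) were available for 30 of the 33 members, all but PDIA3, DERL1 and DERL3. The table lists several starts for 6 of the 30, up to 4 for a gene, and which start these cells use is not known from it. All 38 windows of the members were searched, on both strands and by exact letters, for 4 elements. The ER stress response element (ERSE) is CCAAT, 9 free bases and CCACG, and its first part is bound by NF-Y and its last by ATF6. It was found in a window of 7 of the 30 members and of 25 of all 27305 genes in the table (0.0916%). ERSE-II, which is ATTGG, 1 free base and CCACG, was found in 3 of the 30 and in 19 of all genes (0.0696%). The unfolded protein response element (UPRE), TGACGTGG, was in 1 member and in 253 of all genes (0.927%). The C/EBP-ATF response element (CARE), TGATGCAA, was in 1 member and in 295 of all genes (1.08%). The matches are given below 5′ to 3′ in the reading direction of the element, with the fixed letters in capitals and the free positions in lower case.
XBP1 ERSE, chr22:28800603-28800621, minus strand: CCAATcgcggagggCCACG
HSPA5 ERSE, chr9:125241391-125241409, minus strand: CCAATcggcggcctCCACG
HSP90B1 ERSE, chr12:103930216-103930234, plus strand: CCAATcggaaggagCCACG
HSP90B1 ERSE, chr12:103930321-103930339, minus strand: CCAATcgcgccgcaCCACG
CALR ERSE, chr19:12938384-12938402, minus strand: CCAATgatggtcgaCCACG
CANX ERSE, chr5:179698778-179698796, plus strand: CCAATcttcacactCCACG
PDIA6 ERSE, chr2:10812853-10812871, minus strand: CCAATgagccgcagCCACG
CRELD2 ERSE, chr22:49918554-49918572, minus strand: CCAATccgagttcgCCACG
HYOU1 ERSE-II, chr11:119057380-119057390, plus strand: ATTGGaCCACG
HYOU1 ERSE-II, chr11:119057274-119057284, plus strand: ATTGGaCCACG
HERPUD1 ERSE-II, chr16:56932025-56932035, plus strand: ATTGGgCCACG
SDF2L1 ERSE-II, chr22:21642114-21642124, minus strand: ATTGGtCCACG
HYOU1 UPRE, chr11:119057386-119057393, minus strand: TGACGTGG
HERPUD1 CARE, chr16:56931966-56931973, minus strand: TGATGCAA

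The UPRE match of HYOU1 overlaps the first of its ERSE-II matches on the opposite strand. In total 10 members held an ERSE or ERSE-II, and 9 of those were tested. The XBP1 match lies before the more upstream of the 2 XBP1 starts listed, the PDIA6 match before the more downstream of 2, and the CANX match in overlapping windows. A match is a description of letters and not a measured binding site, and a window without a match says only that these letters were not in it.

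**Figure D1:**
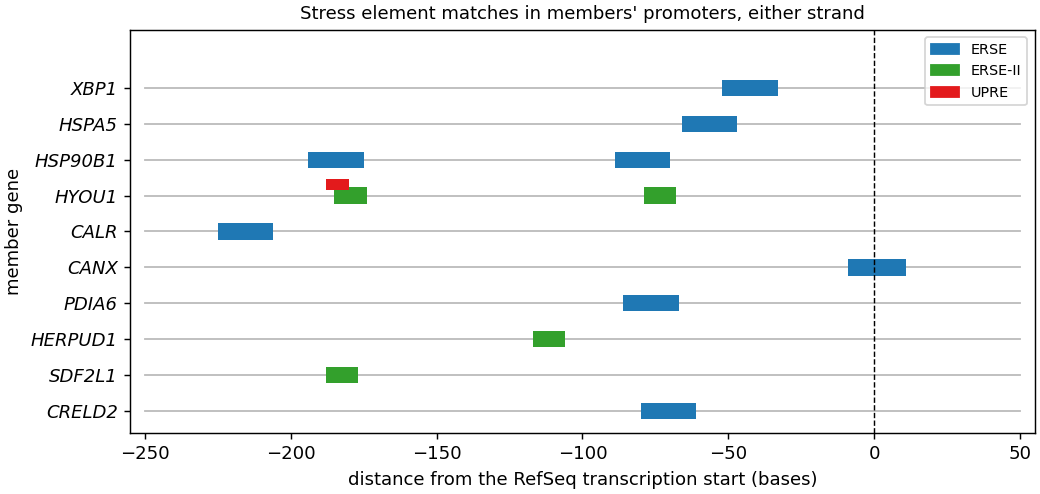
Positions of ERSE, ERSE-II and UPRE matches (coloured blocks, either strand) in the promoter windows of the 10 members that held an ERSE or ERSE-II; the x axis is the distance in bases from the RefSeq transcription start (dashed line), the most upstream start whose window holds the match. All blocks lie before the start except that of CANX, which spans it, and HSP90B1 and HYOU1 hold 2 blocks of the same element.

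The 250 bases before the start are printed whole for 4 members on which the results turn, with matches in capitals. HSPA5, which encodes the main ER chaperone BiP, and XBP1, at the more upstream of its starts, each hold an ERSE. XBP1 and WFS1 fell most in the knockdowns and PPP1R15A rose most, and none of the 4 elements was found in the windows of WFS1 and PPP1R15A.
HSPA5, chr9:125241344-125241593, minus strand: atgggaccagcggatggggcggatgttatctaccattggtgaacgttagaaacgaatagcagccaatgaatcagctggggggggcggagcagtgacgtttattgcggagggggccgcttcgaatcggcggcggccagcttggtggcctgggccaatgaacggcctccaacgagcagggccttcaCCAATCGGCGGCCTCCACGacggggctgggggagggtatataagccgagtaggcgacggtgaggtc
XBP1, chr22:28800570-28800819, minus strand: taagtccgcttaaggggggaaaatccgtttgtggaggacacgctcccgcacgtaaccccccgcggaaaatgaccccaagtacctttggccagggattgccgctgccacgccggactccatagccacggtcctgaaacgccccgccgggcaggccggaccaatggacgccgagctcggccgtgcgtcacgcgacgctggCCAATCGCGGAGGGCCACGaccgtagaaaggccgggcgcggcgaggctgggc
WFS1, chr4:6269600-6269849, plus strand: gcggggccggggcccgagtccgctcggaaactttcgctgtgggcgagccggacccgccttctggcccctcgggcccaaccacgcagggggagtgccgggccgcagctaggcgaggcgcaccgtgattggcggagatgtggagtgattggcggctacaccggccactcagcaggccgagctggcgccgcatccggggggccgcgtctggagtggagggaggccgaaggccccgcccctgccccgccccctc
PPP1R15A, chr19:48872171-48872420, plus strand: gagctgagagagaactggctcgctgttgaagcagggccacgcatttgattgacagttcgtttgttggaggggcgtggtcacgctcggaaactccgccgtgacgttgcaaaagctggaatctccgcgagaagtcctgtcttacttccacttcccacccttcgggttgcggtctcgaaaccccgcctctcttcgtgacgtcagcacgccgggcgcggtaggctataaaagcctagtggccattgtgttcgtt

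Values below are log2 of background-corrected, quantile-normalised probe intensity, and a change is a difference of group means on that scale. An array was counted as measuring a probe where its deposited intensity was over 106, the 95th percentile of 437 olfactory receptor probes. Each of 2 chips held 3 arrays of every group, and values on each chip alone are given for the members described array by array; for the rest, calls that held on each chip alone are counted. No chip position held more than 1 group, so that the position and the group cannot be told apart. Among whole-series checks, ERBB2 stood at 53.3% of control in HER2 knockdown, at 50.9% in PMCA2 knockdown and at 31.5% in NHERF1 knockdown. NHERF1 itself stood at 8.10% of control in its own knockdown, at 54.1% in PMCA2 knockdown and at 62.9% in HER2 knockdown. The ATP2B2 probe passed the floor on 1 of 24 arrays, so the PMCA2 label could not be checked. Across genes, the median r was 0.996 between arrays that shared group and chip, 0.973 between knockdowns and 0.918 between control and knockdown arrays. Of 22 luminal epithelial markers, whose summed intensity was 59174 to 62395 on control arrays, the sum was 34516 to 35648 in PMCA2 knockdown, 27735 to 28565 in NHERF1 knockdown and 32509 to 34543 in HER2 knockdown. Of these 22 markers, 17, 16 and 16 were lower (limma adjusted p under 0.05) and 3, 6 and 4 higher in PMCA2, NHERF1 and HER2 knockdown. In each knockdown 1 of the higher ones changed at least 2-fold. Of all genes, 33.1%, 30.9% and 31.8% were lower and 33.9%, 35.7% and 35.4% higher. SPDEF, SCGB2A2 and AZGP1 were at the floor on every knockdown array. The sum of 20 trophoblast markers was 2288 to 2555 in control and 11874 to 12682, 7835 to 8896 and 7477 to 8139 in PMCA2, NHERF1 and HER2 knockdown. Of the 16 tested, 14, 12 and 11 were higher and 1, 3 and 3 lower at the same threshold. PSG1, CSH1 and ERVFRD-1 were at the floor on every control, NHERF1 knockdown and HER2 knockdown array. The sum of basal and mesenchymal markers, 11 of 13 named on the arrays, was 537 to 595 in control, 647 to 713 in PMCA2, 2673 to 2878 in NHERF1 and 975 to 1108 in HER2 knockdown, with KRT14, ZEB1 and ZEB2 at the floor on every array. Of the 6 tested, 3, 4 and 4 were higher and 2, 0 and 0 lower. The sum of 11 fibroblast markers was 296 to 300 in control, 333 to 362 in PMCA2, 1009 to 1091 in NHERF1 and 614 to 714 in HER2 knockdown, with LUM, PDGFRA, FAP and THY1 at the floor on every array. Of the 4 tested, 3, 3 and 2 were higher and 0, 0 and 0 lower. The other markers of these lists were not above the floor on enough arrays, so the sums do not show a shift of a whole list. A marker above the floor in 1 group alone could enter these counts. The part of these shifts in the results below was not tested.

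Of the 33 members, HERPUD1, an ERAD scaffold at the ER membrane, had no probe under its symbol in the annotation used and was not analysed here. ERN1 and the disulfide isomerase PDIA3 were above the floor on 0 arrays, and DERL3, a derlin of the ERAD channel, on 3. SEL1L was above it on 23 arrays and the other 28 tested members on all 24, so that no tested member passed the filter through one group alone. A further probe was above the floor for 6 of the tested members, namely XBP1, HYOU1, CANX, SYVN1, SELENOS and DERL2, and its values are given where it changes a call or a direction in a comparison described. The tested members had means over all arrays from 5.06 to 12.34, and SDs within a group from 0.023 to 0.22.

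XBP1 and WFS1 fell and PPP1R15A and DDIT3 rose in all 3 knockdowns, while most chaperones moved by less than 1.5-fold. Most of all genes tested also moved by less than 1.5-fold. Their median absolute log2 change was 0.28, 0.29 and 0.29 in PMCA2, NHERF1 and HER2 knockdown. Against control, 10 of the 29 tested members rose and 11 fell in PMCA2 knockdown, where 33.9% of all genes were called higher and 33.1% lower at an adjusted p under 0.05 (limma, Benjamini-Hochberg over the 12445 genes). In NHERF1 knockdown 5 rose and 16 fell, beside 35.7% higher and 30.9% lower among all genes. In HER2 knockdown 5 rose and 19 fell, beside 35.4% and 31.8%. The share of members called in either direction was thus near that of all genes in PMCA2 and NHERF1 knockdown (21 of 29 each, beside 67% and 66.7%), and in HER2 knockdown it was 24 of 29 beside 67.2%. The median change of the members was -0.09, -0.22 and -0.20 in PMCA2, NHERF1 and HER2 knockdown, and that of all genes 0.00, 0.02 and 0.02. At least 2-fold were 4, 2 and 4 of the 29 in PMCA2, NHERF1 and HER2 knockdown, beside 13.3%, 12.8% and 13% of all genes. Without background correction these counts were 2, 2 and 3, beside 6.14%, 6% and 5.95% of all genes. Arrays did not overlap with control for 15, 19 and 14 members, beside 49.1%, 50% and 49.2% of all genes. In bulk RNA, fewer cells of a type and less RNA per cell cannot be told apart, here and below. These 3 comparisons share the same control arrays, so their values stand side by side and are not independent of each other. All members called in a comparison against control differed in the same direction on both chips. The calls were made on these same arrays, so that agreement is no separate support, here and below. In PMCA2, NHERF1 and HER2 knockdown, 14 of 21, 19 of 21 and 15 of 24 of them were called on each chip alone.

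**Figure D2:**
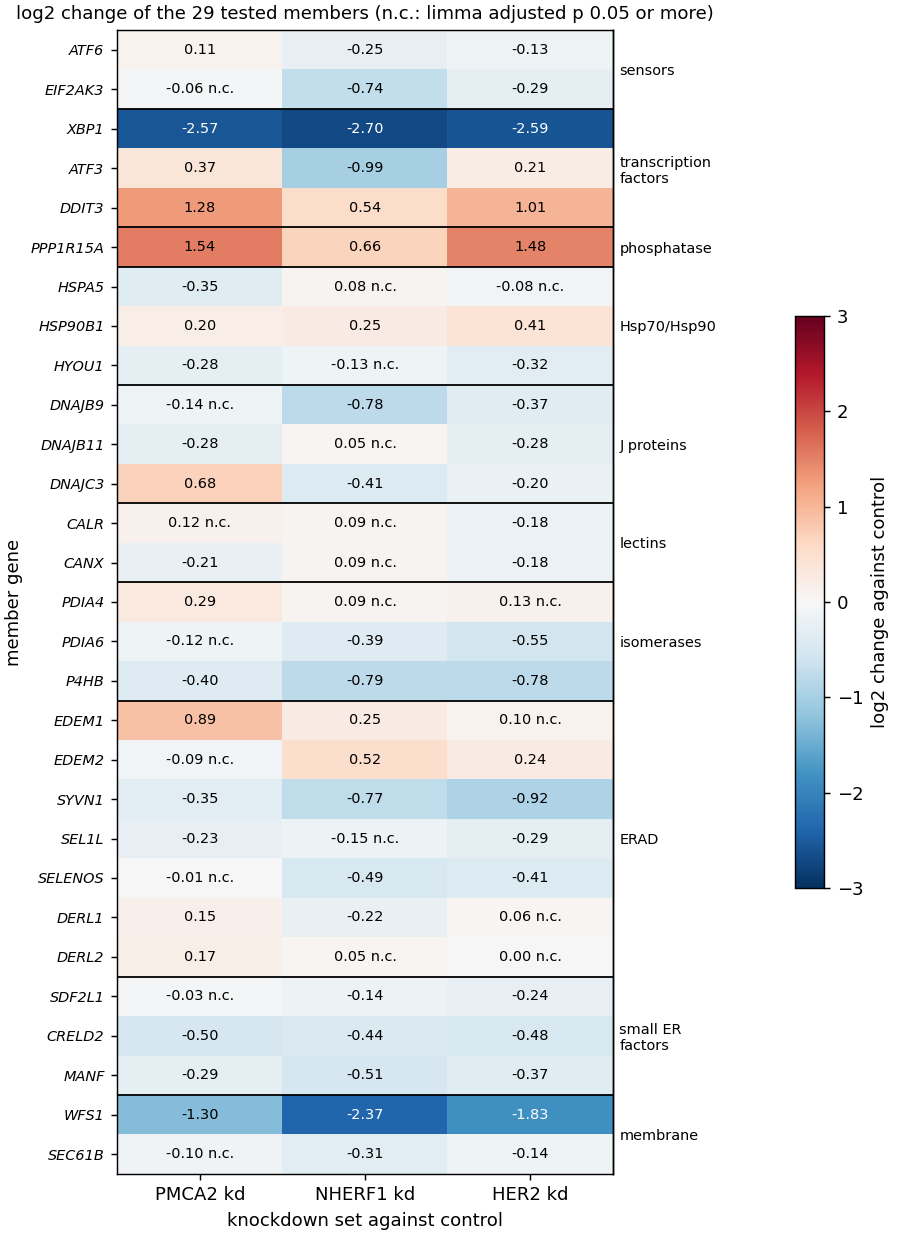
log2 change against control of the 29 tested members (rows, grouped by role) in the 3 knockdowns (columns), blue for lower and red for higher, with the value in each cell; n.c. marks an adjusted p of 0.05 or more. XBP1 and WFS1 are the deepest blue in every column, at -2.70 to -1.30, and PPP1R15A and DDIT3 the deepest red, at 0.54 to 1.54.

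Among the sensors, neither ATF6 nor EIF2AK3 changed 2-fold in any knockdown, and both were lowest in NHERF1 knockdown. ATF6, the sensor that becomes a transcription factor, had values from 8.84 to 8.99 (median 8.90) in control, 8.94 to 9.09 (9.004) in PMCA2 knockdown, 8.59 to 8.73 (8.64) in NHERF1 knockdown and 8.66 to 8.87 (8.78) in HER2 knockdown. All 6 NHERF1 knockdown arrays lay below the control arrays, and the other knockdowns overlapped with control. The change was 0.11 ± 0.04 (SE, n = 6 a group, limma adjusted p = 0.0278) in PMCA2 knockdown, -0.25 ± 0.04 (adjusted p = 1.18e-05) in NHERF1 knockdown and -0.13 ± 0.04 (adjusted p = 0.0116) in HER2 knockdown. The PMCA2 call was lost with cyclic loess normalisation (adjusted p = 0.0556), and neither the PMCA2 nor the HER2 call passed on either chip alone (adjusted p = 0.116 to 0.199).

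EIF2AK3, the PERK kinase, spread more than most members in control, at 6.01 to 6.65 (median 6.31). It read 6.14 to 6.38 (6.25) in PMCA2 knockdown, 5.27 to 5.72 (5.62) in NHERF1 knockdown and 5.88 to 6.19 (6.00) in HER2 knockdown. The NHERF1 knockdown arrays were all below control and the HER2 and PMCA2 knockdown arrays overlapped with it. It fell by 0.74 ± 0.09 in NHERF1 knockdown (limma adjusted p = 1.62e-08; -0.79 and -0.69 on chips 1 and 2) and by 0.29 ± 0.09 in HER2 knockdown (adjusted p = 0.00392; -0.38 and -0.20, the latter with adjusted p = 0.0877), and differed by -0.06 ± 0.09 in PMCA2 knockdown (adjusted p = 0.524). Without background correction the EIF2AK3 changes in NHERF1 and HER2 knockdown were -0.32 and -0.14, still called. ERN1, the sensor that splices XBP1, read 4.17 to 4.37 in control and 4.23 to 4.59 over the 3 knockdowns; a probe that never passed the floor gives no order among the groups.

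**Figure D3:**
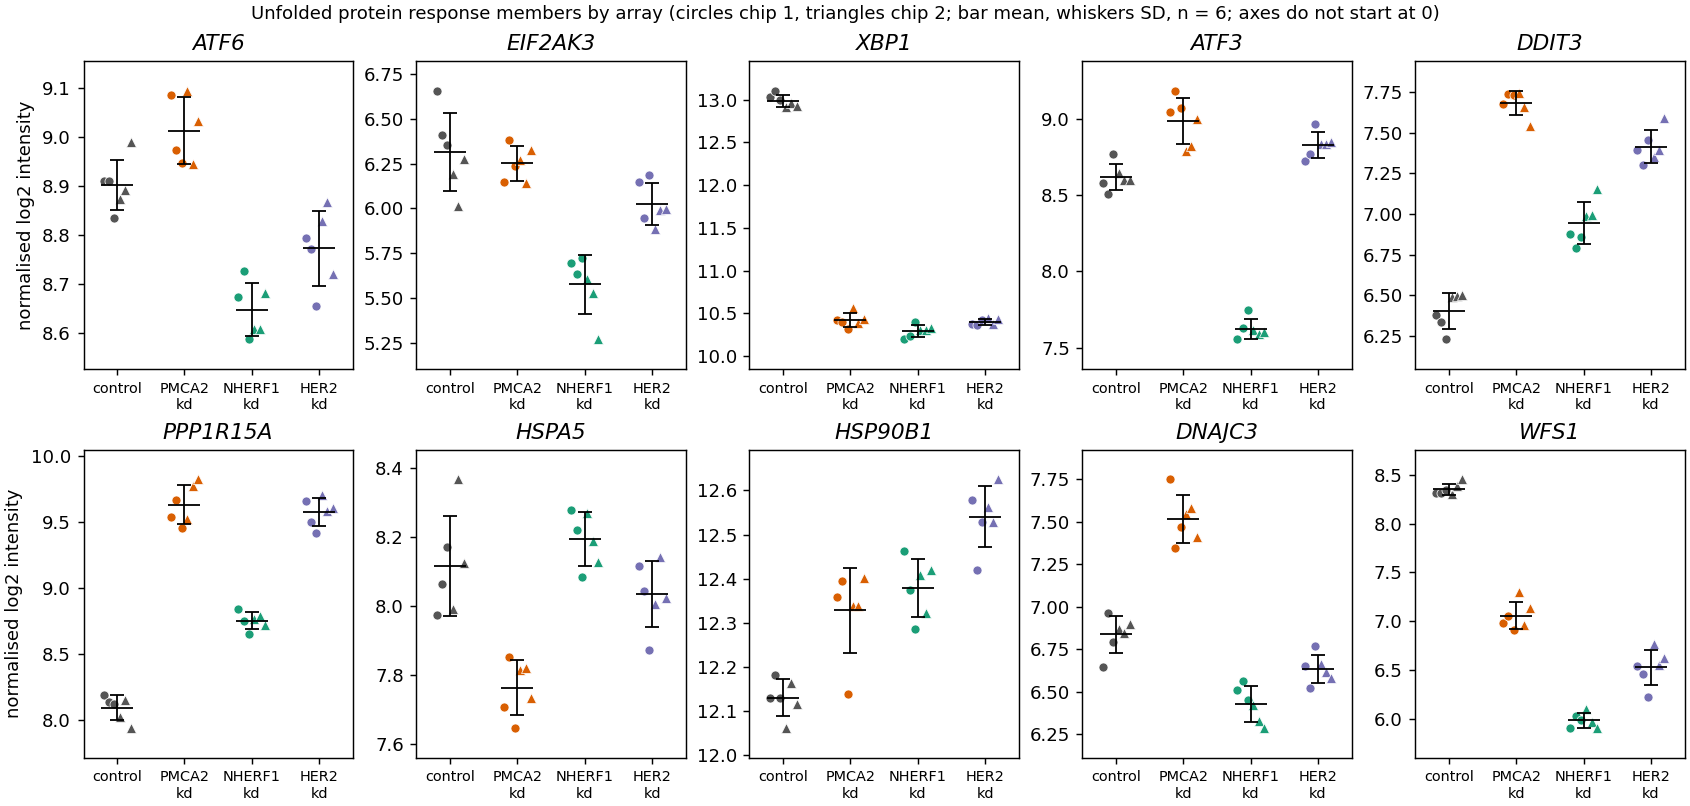
Normalised log2 intensity of 10 members on each array (points; circles chip 1, triangles chip 2), with the mean (bar) and SD (whiskers) of the 6 arrays of each group; the y axes differ between panels and do not start at 0. XBP1 is at 12.92 to 13.10 in control and 10.19 to 10.56 in every knockdown array, ATF3 is lowest in NHERF1 knockdown, and DDIT3 and PPP1R15A are above control in all 3 knockdowns.

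XBP1, the transcription factor made active by ERN1 splicing, showed the deepest fall of any member in each knockdown. Its control arrays read 12.92 to 13.10 (median 12.98), a mean deposited intensity of 8224. PMCA2 knockdown arrays read 10.32 to 10.56 (10.41), NHERF1 knockdown arrays 10.19 to 10.40 (10.30) and HER2 knockdown arrays 10.37 to 10.44 (10.40). Every knockdown array was far below every control array. XBP1 was 5.94-fold lower in PMCA2 knockdown (log2 change -2.57 ± 0.05, limma adjusted p = 2.34e-26), 6.48-fold lower in NHERF1 knockdown (-2.70 ± 0.05, adjusted p = 7.89e-27) and 6.02-fold lower in HER2 knockdown (-2.59 ± 0.05, adjusted p = 1.88e-26). On each chip alone the changes ran from -2.77 to -2.47. A second XBP1 probe changed by -2.61, -2.72 and -2.65. The probe sequences were not used here, so the spliced and unspliced transcripts were not told apart.

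ATF3, a stress-induced repressor and activator of the ATF family, went opposite ways in the knockdowns. It read 8.51 to 8.77 (median 8.60) in control, 8.79 to 9.18 (9.02) in PMCA2 knockdown, 7.55 to 7.74 (7.61) in NHERF1 knockdown and 8.72 to 8.96 (8.83) in HER2 knockdown. PMCA2 knockdown arrays were all above control, NHERF1 knockdown arrays all below, and HER2 knockdown arrays overlapped with control. The change was 0.37 ± 0.06 in PMCA2 knockdown (limma adjusted p = 4.85e-06; 0.48 on chip 1, 0.26 on chip 2), -0.99 ± 0.06 in NHERF1 knockdown (adjusted p = 3.25e-14; -0.98 and -1.01) and 0.21 ± 0.06 in HER2 knockdown (adjusted p = 0.00282; 0.20 and 0.22). The HER2 call was not reached on chip 1 alone (adjusted p = 0.0813).

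DDIT3, the CHOP transcription factor that promotes cell death under lasting ER stress, read 6.23 to 6.50 (median 6.44) in control. It read 7.54 to 7.74 (7.70) in PMCA2 knockdown, 6.79 to 7.15 (6.93) in NHERF1 knockdown and 7.30 to 7.59 (7.39) in HER2 knockdown. No knockdown array overlapped with control, and NHERF1 knockdown lay lowest of the 3. DDIT3 was 2.42-fold higher in PMCA2 knockdown (log2 change 1.28 ± 0.06, limma adjusted p = 2.34e-16), 1.45-fold in NHERF1 knockdown (0.54 ± 0.06, adjusted p = 1.48e-08) and 2.01-fold in HER2 knockdown (1.01 ± 0.06, adjusted p = 4.32e-14). Chip 1 and chip 2 gave 1.40 and 1.15, 0.53 and 0.55, and 1.07 and 0.95. Without background correction the DDIT3 changes were 0.79, 0.30 and 0.60, none of them 2-fold.

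PPP1R15A, the GADD34 subunit that directs the phosphatase to eIF2alpha, was likewise highest in PMCA2 and HER2 knockdown. It read 7.94 to 8.19 (median 8.13) in control, 9.45 to 9.82 (9.60) in PMCA2 knockdown, 8.65 to 8.84 (8.76) in NHERF1 knockdown and 9.41 to 9.70 (9.59) in HER2 knockdown. All knockdown arrays were above all control arrays. It was 2.90-fold higher in PMCA2 knockdown (1.54 ± 0.06, limma adjusted p = 4.51e-18), 1.58-fold in NHERF1 knockdown (0.66 ± 0.06, adjusted p = 3.98e-10) and 2.80-fold in HER2 knockdown (1.48 ± 0.06, adjusted p = 1e-17). The chips gave 1.40 and 1.67, 0.60 and 0.72, and 1.37 and 1.59.

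By the probes used, the Hsp70 and Hsp90 chaperones changed by -0.35 to 0.41 against control. The median absolute change of all genes was 0.28 to 0.29. HSPA5 (BiP, the ER Hsp70) read 7.97 to 8.37 (median 8.09) in control, 7.65 to 7.85 (7.77) in PMCA2 knockdown, 8.08 to 8.28 (8.21) in NHERF1 knockdown and 7.87 to 8.14 (8.03) in HER2 knockdown. PMCA2 knockdown arrays were all below control and the other knockdowns overlapped with it. HSPA5 fell by 0.35 ± 0.06 in PMCA2 knockdown (limma adjusted p = 1.05e-05; -0.33 and -0.37 on the chips), and differed from control by 0.08 ± 0.06 in NHERF1 knockdown (adjusted p = 0.259) and by -0.08 ± 0.06 in HER2 knockdown (adjusted p = 0.246). HSP90B1 (GRP94, the ER Hsp90) read 12.06 to 12.18 (median 12.13) in control, 12.14 to 12.40 (12.35) in PMCA2 knockdown, 12.28 to 12.46 (12.39) in NHERF1 knockdown and 12.42 to 12.62 (12.55) in HER2 knockdown. NHERF1 and HER2 knockdown arrays were all above control, and 1 low PMCA2 knockdown array overlapped with it. HSP90B1 rose by 0.20 ± 0.05 (adjusted p = 0.000577), 0.25 ± 0.05 (adjusted p = 4e-05) and 0.41 ± 0.05 (adjusted p = 1.46e-08) in PMCA2, NHERF1 and HER2 knockdown, and the chips gave 0.15 and 0.25, 0.23 and 0.27, and 0.36 and 0.46. The PMCA2 call was not reached on chip 1 alone (adjusted p = 0.15). HYOU1 (GRP170, a nucleotide exchange factor of HSPA5) fell by 0.28 ± 0.08 in PMCA2 knockdown and by 0.32 ± 0.08 in HER2 knockdown. In NHERF1 knockdown it differed by -0.13 ± 0.08 (adjusted p = 0.148), where its second probe changed by -0.28 (adjusted p = 1.63e-05).

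The J proteins, which hand substrates to HSPA5 and set its ATPase going, each showed a pattern of their own. DNAJC3 (p58IPK, also an inhibitor of eIF2alpha kinases) read 6.64 to 6.97 (median 6.86) in control, 7.34 to 7.75 (7.51) in PMCA2 knockdown, 6.29 to 6.56 (6.44) in NHERF1 knockdown and 6.52 to 6.77 (6.63) in HER2 knockdown. PMCA2 knockdown arrays were all above control, NHERF1 knockdown arrays all below it, and HER2 knockdown arrays overlapped with it. DNAJC3 rose by 0.68 ± 0.06 in PMCA2 knockdown (limma adjusted p = 4.62e-10; 0.72 and 0.64 on the chips) and fell by 0.41 ± 0.06 in NHERF1 knockdown (adjusted p = 3.23e-06; -0.29 and -0.53) and by 0.20 ± 0.06 in HER2 knockdown (adjusted p = 0.00741; -0.15 and -0.25, the former with adjusted p = 0.259). Without background correction the DNAJC3 changes were 0.43, -0.23 and -0.12, all called. DNAJB9 (ERdj4) fell by 0.78 in NHERF1 knockdown and by 0.37 in HER2 knockdown, and differed by -0.14 in PMCA2 knockdown (adjusted p = 0.101). DNAJB11 (ERdj3) fell by 0.28 in PMCA2 and by 0.28 in HER2 knockdown, and differed by 0.05 in NHERF1 knockdown (adjusted p = 0.361). Of the lectin chaperones, which bind monoglucosylated glycoproteins, calnexin (CANX) fell by 0.21 in PMCA2 knockdown and by 0.18 in HER2 knockdown and calreticulin (CALR) by 0.18 in HER2 knockdown, while neither passed the test in NHERF1 knockdown (0.09 each). CALR in HER2 knockdown was called on neither chip alone (adjusted p = 0.0682 and 0.13), CANX in HER2 knockdown not on chip 2 (-0.06, adjusted p = 0.48) and CANX in PMCA2 knockdown not on chip 1 (adjusted p = 0.0756).

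Of the 3 tested disulfide isomerases, which form and reshuffle disulfide bonds, P4HB (PDI) fell in every knockdown, by 0.40 ± 0.05 in PMCA2, 0.79 ± 0.05 in NHERF1 and 0.78 ± 0.05 in HER2 knockdown (limma adjusted p of 4.93e-08 or below), with no overlap with control. Its control arrays read 12.02 to 12.27 and all knockdown arrays 11.25 to 11.90. PDIA6 fell by 0.39 in NHERF1 and by 0.55 in HER2 knockdown, and PDIA4 rose by 0.29 in PMCA2 knockdown. The other comparisons of PDIA4 and PDIA6 with control did not pass (log2 -0.12 to 0.13).

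Of the 7 tested ERAD members, 3 rose and 2 fell in PMCA2 knockdown, 2 rose and 3 fell in NHERF1 knockdown, and 1 rose and 3 fell in HER2 knockdown. Among all genes 33.9%, 35.7% and 35.4% were called higher and 33.1%, 30.9% and 31.8% lower, in the same order. Nothing particular to ERAD is read from these counts. EDEM1, which with its relative EDEM2 trims mannose from misfolded glycoproteins, rose by 0.89 ± 0.06 in PMCA2 knockdown, from 7.39 to 7.74 in control to 8.43 to 8.72 (limma adjusted p = 5.11e-13), by 0.25 in NHERF1 knockdown (adjusted p = 0.000762), and differed by 0.10 in HER2 knockdown (adjusted p = 0.163). EDEM2 rose by 0.52 ± 0.05 in NHERF1 knockdown and by 0.24 ± 0.05 in HER2 knockdown, and differed by -0.09 in PMCA2 knockdown (adjusted p = 0.102). PMCA2 knockdown arrays were thus the highest for EDEM1 and NHERF1 knockdown arrays for EDEM2. SYVN1 (HRD1), the ubiquitin ligase of the pathway, fell by 0.35 ± 0.06, 0.77 ± 0.06 and 0.92 ± 0.06 in PMCA2, NHERF1 and HER2 knockdown, with no overlap with control. A dimmer SYVN1 probe fell by 0.32, 0.37 and 0.33. SEL1L, the ligase's cofactor, fell by 0.23 in PMCA2 and by 0.29 in HER2 knockdown at a level close to the floor. SELENOS, a selenoprotein that ties the derlins to the extraction machinery, fell by 0.49 in NHERF1 and by 0.41 in HER2 knockdown and differed by -0.01 in PMCA2 knockdown (adjusted p = 0.822), where a dim probe of the gene fell by 0.33. Of the derlins, DERL1 rose by 0.15 in PMCA2 knockdown and fell by 0.22 in NHERF1 knockdown, and DERL2 rose by 0.17 in PMCA2 knockdown, where its second probe fell by 0.21, so its direction depends on the probe.

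The small ER factors CRELD2 and MANF, both secreted proteins induced by ER stress, fell in every knockdown. CRELD2 fell by 0.50 ± 0.05, 0.44 ± 0.05 and 0.48 ± 0.05 and MANF by 0.29 ± 0.04, 0.51 ± 0.04 and 0.37 ± 0.04 in PMCA2, NHERF1 and HER2 knockdown, with no overlap with control. SDF2L1, a partner of the J proteins, fell by 0.14 in NHERF1 and by 0.24 in HER2 knockdown.

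WFS1 (wolframin), an ER membrane glycoprotein that takes part in ER calcium balance and in restraining ATF6, had the second deepest fall among the members. It read 8.31 to 8.45 (median 8.33) in control, 6.91 to 7.30 (7.02) in PMCA2 knockdown, 5.91 to 6.10 (5.98) in NHERF1 knockdown and 6.22 to 6.76 (6.55) in HER2 knockdown. Every knockdown array was below control, and NHERF1 knockdown lay below both other knockdowns. WFS1 was 2.46-fold lower in PMCA2 knockdown (-1.30 ± 0.07, limma adjusted p = 2.76e-15), 5.18-fold lower in NHERF1 knockdown (-2.37 ± 0.07, adjusted p = 3.13e-21) and 3.55-fold lower in HER2 knockdown (-1.83 ± 0.07, adjusted p = 1.23e-18). The chips gave -1.34 and -1.25, -2.35 and -2.39, and -1.92 and -1.74. Without background correction, on log2 of the deposited values, the WFS1 changes were smaller, at -0.93, -1.50 and -1.23, so the folds depend on that step. SEC61B, a subunit of the translocon, fell by 0.31 in NHERF1 and by 0.14 in HER2 knockdown.

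Of the 9 tested members with an ERSE or ERSE-II match, XBP1 alone changed 2-fold, 1 of 9 beside 13.3%, 12.8% and 13% of all genes in PMCA2, NHERF1 and HER2 knockdown, a count too small to set apart from those shares. In PMCA2 knockdown 1 of the 9 rose and 5 fell, in NHERF1 knockdown 1 rose and 4 fell, and in HER2 knockdown 1 rose and 7 fell. The riser was HSP90B1 each time. Among all genes 33.9%, 35.7% and 35.4% were called higher and 33.1%, 30.9% and 31.8% lower, in the same order. Nothing particular to these elements is read from the counts. The lowest values of the 9 were those of XBP1 and their highest were 0.20, 0.25 and 0.41. The 19 tested members with a promoter window and neither element ranged from -1.30 to 1.54, -2.37 to 0.66 and -1.83 to 1.48. Medians of the 9 were -0.21, -0.13 and -0.24, and of the 19 -0.06, -0.31 and -0.20.

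The knockdowns were also set against each other, which uses no control array. In these 3 comparisons too, all members called had the same direction on both chips; called on each chip alone were 18 of 23 in PMCA2 against NHERF1, 11 of 19 in PMCA2 against HER2 and 9 of 22 in NHERF1 against HER2 knockdown. PMCA2 against NHERF1 knockdown separated the members most: 19 were higher in PMCA2 knockdown and 4 lower, beside 27.3% higher and 30% lower among all genes, where 57.3% were called in either direction. For 20 of 29 the arrays did not overlap, beside 38.1% of all genes, and 3 differed 2-fold, beside 4.27%. The members' median difference was 0.22 and that of all genes -0.01. The basal, mesenchymal and fibroblast sums given above were highest in NHERF1 knockdown and the trophoblast sum in PMCA2 knockdown, and their part in this comparison was not tested. ATF3 was 2.57-fold higher in PMCA2 than in NHERF1 knockdown (1.36 ± 0.06, limma adjusted p = 1.15e-16; 1.46 and 1.26 on the chips), DNAJC3 2.13-fold (1.09 ± 0.06, adjusted p = 7.52e-14; 1.01 and 1.17) and WFS1 2.11-fold (1.08 ± 0.07, adjusted p = 5.01e-13; 1.01 and 1.14). Without background correction ATF3 differed by 1.08, DNAJC3 by 0.66 and WFS1 by 0.57, so 1 of the 3 stayed past 2-fold. PPP1R15A, DDIT3, EIF2AK3, DNAJB9 and EDEM1 were higher by 0.88, 0.74, 0.67, 0.64 and 0.64, and ATF6 by 0.37, each with no overlap. The 4 lower members were EDEM2 (-0.61), HSPA5 (-0.43), DNAJB11 (-0.33) and CANX (-0.30). XBP1 differed by 0.13 ± 0.05 (adjusted p = 0.0188), with overlapping arrays and no call on either chip alone (adjusted p = 0.313 and 0.0542) or by its second probe (0.11, adjusted p = 0.0701). Higher by the probe used, but not by a dimmer one, were SYVN1 (0.42, and 0.06 with adjusted p = 0.72) and SELENOS (0.47, and -0.03 with adjusted p = 0.875), though another SELENOS probe gave 0.50 (adjusted p = 1.12e-09). DERL2 was higher by 0.11 (adjusted p = 0.0381) and its second probe differed by -0.10 (adjusted p = 0.164). Both sensors tested, the 3 transcription factors, PPP1R15A and the 3 isomerases were called higher in PMCA2 knockdown, and no member of the Hsp70 and Hsp90 or lectin groups was. Among those called higher, XBP1 and PDIA4 (0.20, adjusted p = 0.0673 and 0.0529) were called on neither chip alone. PDIA6 (0.27) was not called on chip 1 alone (adjusted p = 0.0785).

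**Figure D4:**
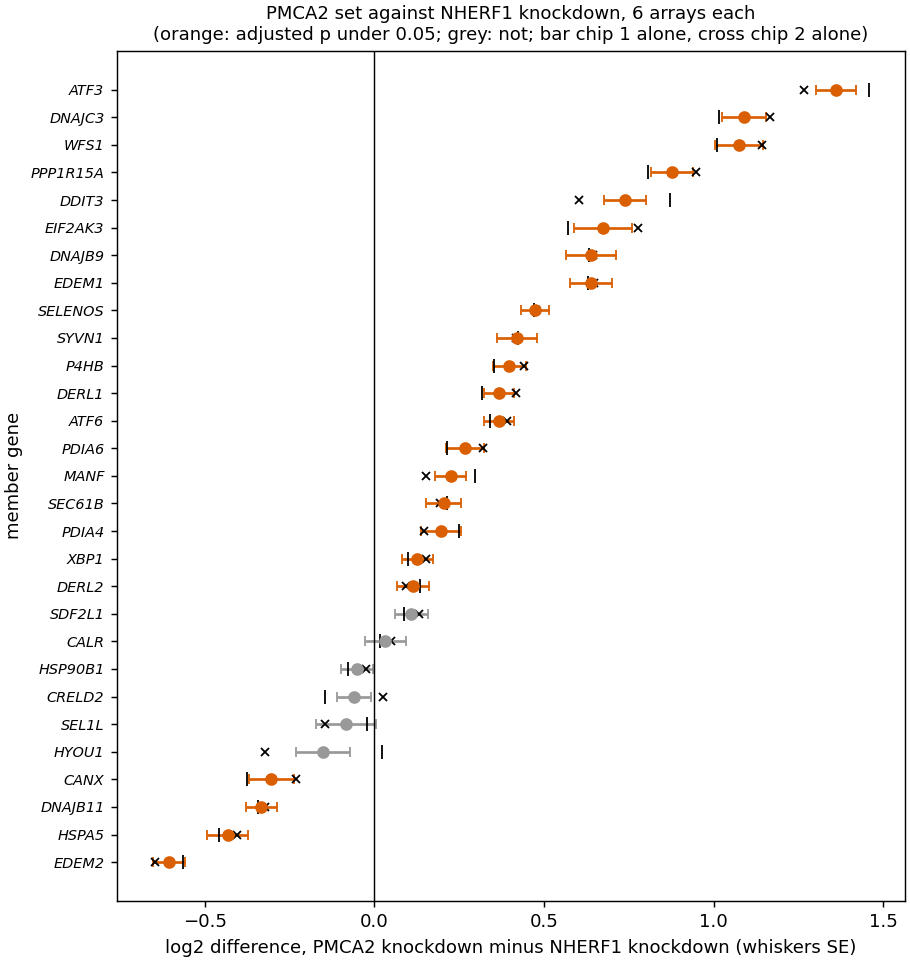
Difference in normalised log2 intensity between PMCA2 and NHERF1 knockdown (x axis, PMCA2 minus NHERF1; points with SE whiskers, 6 arrays a group) for the 29 tested members, ordered by size. Orange points passed an adjusted p of 0.05 and grey points did not, and the black bars and crosses give chips 1 and 2 alone; ATF3, DNAJC3 and WFS1 lie above 1 and EDEM2 is lowest at -0.61.

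PMCA2 against HER2 knockdown gave 16 members higher and 3 lower, beside 26.5% and 28.9% of all genes, with a median difference of 0.17 (all genes -0.01); 55.4% of all genes were called in either direction. Arrays of 14 members did not overlap, beside 34.2% of all genes, and 0 differed 2-fold, beside 4.63%. DNAJC3 (0.88 ± 0.06, limma adjusted p = 5.75e-12), EDEM1 (0.79 ± 0.06, adjusted p = 1.49e-11), SYVN1 (0.56 ± 0.06) and WFS1 (0.53 ± 0.07) were higher in PMCA2 knockdown with no overlap. The dimmer SYVN1 probe differed by 0.01 (adjusted p = 0.938). SELENOS was higher by 0.40 with the probe used and by 0.39 with a second, and a dim probe differed by 0.00 (adjusted p = 0.994). DERL2 was higher by 0.17 and its second probe lower (-0.16, adjusted p = 0.0284), so its direction depends on the probe here too. HYOU1 differed by 0.04 (adjusted p = 0.686) and its second probe by 0.12 (adjusted p = 0.041). The lower ones were EDEM2 (-0.33), HSPA5 (-0.27) and HSP90B1 (-0.21). DDIT3 was higher in PMCA2 knockdown by 0.27 ± 0.06 (adjusted p = 0.000606) and ATF3 by 0.16 ± 0.06 (adjusted p = 0.0287), with overlapping arrays and no call on chip 2 alone (adjusted p = 0.054 and 0.732). XBP1 differed by 0.02 ± 0.05 (adjusted p = 0.749) and PPP1R15A by 0.05 ± 0.06 (adjusted p = 0.505).

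NHERF1 against HER2 knockdown gave 9 members higher and 13 lower, beside 26.8% and 25.4% of all genes, with a median difference of -0.03 (all genes 0.01); 52.3% of all genes were called in either direction. Arrays of 11 members did not overlap, beside 32.4% of all genes, and 1 differed 2-fold, beside 3.49%. On chip 1 alone 11 members were called and on chip 2 alone 13, in place of 22. ATF3 was 2.30-fold lower in NHERF1 knockdown (-1.20 ± 0.06, limma adjusted p = 2.15e-15; -1.18 and -1.23 on the chips), PPP1R15A 1.77-fold lower (-0.82 ± 0.06, adjusted p = 1.4e-11), WFS1 1.46-fold (-0.54 ± 0.07) and DDIT3 1.39-fold (-0.47 ± 0.06), all without overlap. EIF2AK3 (-0.45) and DNAJB9 (-0.41) were lower too, and DNAJB11 (0.33), EDEM2 (0.27), CANX (0.27) and CALR (0.26) higher. CANX was not called on chip 2 alone (0.06, adjusted p = 0.543), and its second probe differed by 0.18 (adjusted p = 0.0328). XBP1 differed by -0.11 ± 0.05 (adjusted p = 0.049), a call lost on each chip alone (adjusted p = 0.291 and 0.184) and with the mean of its probes (adjusted p = 0.0724); its second probe differed by -0.07 (adjusted p = 0.304). SYVN1 was higher in NHERF1 knockdown by 0.14 (adjusted p = 0.047), a call its dimmer probe did not give (-0.04, adjusted p = 0.801).

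Other genes of the ER were followed in 8 lists, whose counts stand beside 33.9%, 35.7% and 35.4% of all genes higher and 33.1%, 30.9% and 31.8% lower in PMCA2, NHERF1 and HER2 knockdown. Nothing particular to a list is read from these counts, which are given in that order of knockdowns. Among other transducers and proteases of the response, 5 of 11 tested genes rose and 5 fell in PMCA2 knockdown, 2 rose and 5 fell in NHERF1 knockdown, and 2 rose and 6 fell in HER2 knockdown. CREB3L4, an ER-anchored transcription factor of the ATF6 kind, fell, with changes of -2.41 ± 0.08, -2.43 ± 0.08 and -2.15 ± 0.08 (limma adjusted p = 4.96e-20, 4.31e-20 and 6.98e-19), and was measured on all arrays of each group. MAP3K5 (ASK1, a kinase downstream of ERN1) fell by 0.97, 1.14 and 1.14. In the rest of the eIF2alpha arm (17 tested), 4 rose and 6 fell, 3 rose and 6 fell, and 4 rose and 8 fell, none by 2-fold. TRIB3, a target of DDIT3, fell by 0.47 in PMCA2 and by 0.70 in HER2 knockdown.

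Among other oxidoreductases and prolyl isomerases of the ER (21 tested), 6 rose and 6 fell in PMCA2, 6 rose and 13 fell in NHERF1, and 6 rose and 10 fell in HER2 knockdown. The prolyl isomerase FKBP11 rose by 1.52 ± 0.06 in PMCA2 knockdown (limma adjusted p = 8.01e-19) and was 4.24-fold higher there than in NHERF1 knockdown. The collagen-linked FKBP10 rose by 1.06, 1.21 and 0.85 in PMCA2, NHERF1 and HER2 knockdown. No gene of this list was called at 2-fold in HER2 knockdown against control. Of the COPII coat and KDEL receptors (16 tested), 4 rose and 5 fell, 2 rose and 9 fell, and 3 rose and 7 fell. KDELR1, which returns HSPA5, HSP90B1 and other KDEL proteins from the Golgi, rose by 0.83 ± 0.05 in PMCA2 knockdown (adjusted p = 1.11e-13) and fell by 1.57 ± 0.05 in NHERF1 knockdown (adjusted p = 8.2e-20). The difference between these knockdowns, tested directly, was 2.40 ± 0.05 (adjusted p = 5.5e-23). In HER2 knockdown no gene of the COPII and KDEL receptor list was called at 2-fold against control.

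In the translocon and signal peptidase list (21 tested), 4 rose and 13 fell, 4 rose and 12 fell, and 4 rose and 14 fell. TRAM1, which helps nascent chains enter the membrane, fell by 0.96, 0.88 and 1.01. For glycoprotein folding and glycan trimming (17 tested) the counts were 8 up and 6 down, 5 up and 6 down, and 6 up and 6 down. UGGT1, the sensor that reglucosylates unfolded glycoproteins for the lectins, fell by 0.92, 0.62 and 0.72. Further ERAD and extraction genes (24 tested) split 9 to 9, 7 to 8 and 5 to 9, and partners of the ER Hsp70 (13 tested) 4 to 5, 2 to 6 and 5 to 4.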

How the data were processed

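Probe intensities of 24 arrays, on a linear scale, were deposited by the authors already normalised; no source used here gives the method or software. The values show that sorted intensities of the arrays differed by at most 0.406% at any rank, with a minimum of 81.6, so background had not been subtracted. A second table of non-normalised signals was not used, because its 24 value columns match no sample label. Samples were grouped and numbered by their labels, and array titles gave the chips.

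Background was corrected by normexp (limma's nec) against 437 olfactory receptor probes with an offset of 16, followed by quantile normalisation and log2, so that changes of dim genes are understated. Probes were named from the platform annotation, matched to RefSeq (30113 of 47323 with 1 symbol, 8 with several, 17202 with none, and 30074 matched). Kept probes passed the 95th percentile of olfactory probes on at least 6 arrays, and the probe with the highest mean stood for a gene. limma 3.58.1 in R 4.3.3 fitted the 4 groups and 6 contrasts, with Benjamini-Hochberg adjustment over 12445 genes and a threshold of 0.05. The fit was tested on simulated data. The number of arrays limits the precision.

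Members and lists were chosen with earlier results of these data known. Values on the arrays are given for members changed 2-fold in any contrast and for the sensors, HSPA5, HSP90B1, XBP1, ATF3, DDIT3 and PPP1R15A; other members appear by range, of other lists up to 3 genes a comparison with the largest change could be named. A planned list of genes most like XBP1 is not given, since it would rest on 4 group means. An old symbol of SELENOS was dropped from a list of other ERAD genes. Alternatives covered background, offset, filter, normalisation, probe choice, chip and replicate number. All RefSeq promoter windows of a gene were searched with Python 3.11.15.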

Additional observations from a re-analysis of the deposited data

Results flagged for a closer look

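In 9 of 116 pairs of a tested member and a group, 1 of the 6 arrays stood apart from the rest by Dixon's criterion at 95%, which chance alone meets in about 1 group in 20. Lower than the rest were HSP90B1 on PMCA2 knockdown replicate 3 (12.14, nearest 12.34), PDIA6 on control replicate 1 (9.17, nearest 9.35), P4HB on NHERF1 knockdown replicate 6 (11.25, nearest 11.40), EDEM1 on control replicate 4 (7.39, nearest 7.62) and CRELD2 on control replicate 2 (10.65, nearest 10.76). Higher than the rest were HYOU1 on NHERF1 knockdown replicate 6 (8.24, nearest 8.06), EDEM1 on PMCA2 knockdown replicate 2 (8.72, nearest 8.52), MANF on PMCA2 knockdown replicate 3 (10.83, nearest 10.77) and SEC61B on HER2 knockdown replicate 3 (12.14, nearest 11.94).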

How the results depend on the processing

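Calls of named members were 54 in the 6 comparisons, and each was recomputed under 10 alternatives, which gave the same direction and side of the threshold in 513 of 540 cases and lost the call in 27, with 0 reversals. Blocking by chip or replicate number and the filter settings leave the log2 change of a named member as it was. The mean of a gene's probes can move only that of XBP1. Much of the agreement in direction was therefore fixed in advance and is no separate support. Of the 27, 13 were on chip 1 alone and 9 on chip 2 alone, which hold 3 arrays a group. Members called in NHERF1 against HER2 knockdown fell from 22 to 11 on chip 1 alone and 13 on chip 2 alone; the other counts of calls, of members and of all genes, stayed within 1.5 times. Counts past 2-fold depended more on the background step: without background correction 2, 2 and 3 members passed it in PMCA2, NHERF1 and HER2 knockdown in place of 4, 2 and 4, and in PMCA2 against NHERF1 knockdown 1 in place of 3, as also with an offset of 50; in NHERF1 against HER2 knockdown it was 0 in place of 1. In HER2 knockdown an offset of 50, cyclic loess and chip 2 alone each gave 3, and in NHERF1 knockdown the last pair gave 3. Same-numbered arrays of different groups showed little shared deviation (r of -0.058 to 0.112 over 36 pairs, 4 of them over 0.1). This check cannot exclude that same-numbered samples were handled together. With the replicate number as a block, 23, 21 and 24 members were called against control in PMCA2, NHERF1 and HER2 knockdown, and XBP1 in NHERF1 against HER2 knockdown lost its call (adjusted p = 0.0699). Probes near the floor, such as SEL1L, limit what small changes show.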
